A study of Mus musculus with 168 samples.

Results

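The comparison set wild-type (WT) cortex against cortex of mice with 1 short knock-in allele of the huntingtin gene, Htt, at 10 months of age. Its members were the libraries titled for these genotypes at that age, 16 of the 168 in the series, with 8 WT and 8 Q20. Each genotype had 4 libraries from females and 4 from males. WT mice carried no knock-in allele and were littermate controls by the series' design. Q20 mice were heterozygous for a knock-in allele with a nominal CAG length of 20. Both groups were C57BL/6, were housed with Q20 mice, and carried no treatment in the labels. The same genotypes at 2 and 6 months, from other libraries, and knock-in alleles of nominal CAG lengths 80, 92, 111, 140 and 175 at 10 months stood beside the comparison. Polyadenylated RNA was sequenced and counted per gene. The labels do not say that each library is a separate mouse. The p-values therefore set each difference against the spread between libraries, not between mice known to be separate. In the main test that spread came from all 56 libraries of 10 months.

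Huntingtin is a large cytoplasmic scaffold protein that takes part in vesicle and organelle transport in neurons. Its first exon holds a run of CAG codons, each coding for glutamine, and a long expansion of that run causes Huntington's disease, which strikes the striatum and the cortex. A short run, as in the Q20 allele, lies in the range carried by people without the disease. The WT against Q20 comparison therefore sets cortical transcripts of mice heterozygous for a short-repeat knock-in against those of mice with an unmodified locus. The knock-in allele and other DNA carried with it on the chromosome cannot be told apart in this design.

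The start of the mouse Htt coding sequence is printed here because the labels name the alleles by the length of the CAG run, which lies in it. It was read from the GENCODE M21 transcript Htt-201 and covers chr5:34761907-34762056 of GRCm38, plus strand, in the coding part of exon 1. Capitals mark the codons for glutamine, codons 18 to 24 counted from the start codon, which are 6 CAG and 1 CAA.
Mouse Htt, coding bases 1 to 150: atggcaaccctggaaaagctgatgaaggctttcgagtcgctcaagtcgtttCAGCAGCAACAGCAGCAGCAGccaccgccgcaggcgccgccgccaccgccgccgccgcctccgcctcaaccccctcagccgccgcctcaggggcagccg
The sequence of the Q20 allele was not used here, and the gene counts sum reads from both alleles.

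Total counts of the 16 libraries ran from 31271733 to 43744138. No 2 libraries of a group agreed within sampling noise, the smallest chi-square between 2 of them being 3.93 for each degree of freedom. Xist lay between 1208 and 1470 CPM, the count scaled to a common library size, in the female libraries and at no more than 2.51 in the male ones, and the Y-linked gene Kdm5d was at 0 in females and at 21.1 to 29.4 CPM in males. The library Q20 male 2 stood apart, with the lowest median correlation to the other libraries (0.992 against 0.995 or more for the other 15), the fewest genes detected (20864) and the highest mitochondrial share (12.4%).

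Htt transcript levels of the WT and Q20 cortices overlapped. The WT libraries held 184, 194, 204 and 196 CPM of Htt in females and 190, 185, 198 and 204 CPM in males. The Q20 libraries held 205, 208, 207 and 186 CPM in females and 213, 146, 208 and 208 CPM in males. Apart from Q20 male 2, the lowest of the 16 at 146 CPM, the values lay between 184 and 213 CPM. The means were 194 ± 7.5 (SD, n = 8) in WT and 198 ± 22.3 (SD, n = 8) in Q20, and per length 16.8 against 16.9 FPKM. Medians were 194.7 CPM in WT and 207.4 CPM in Q20. The log2 difference of Htt, WT minus Q20, was -0.02 ± 0.08 (SE) with a 95% interval from -0.19 to 0.14, and edgeR's quasi-likelihood test gave an adjusted p of 1. Without Q20 male 2 the Q20 mean of Htt was 204.9 ± 8.82 CPM (SD, n = 7), and the log2 difference was -0.07 ± 0.08 with a 95% interval from -0.23 to 0.08. At 2 months Htt had 191.7 ± 27.55 CPM in WT and 206.4 ± 17.31 CPM in Q20 (SD, n = 8 each). The log2 difference at that age was -0.11 ± 0.11, and the lowest WT library was WT female 2 at 131 CPM.

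Across the transcriptome, 1 of 17219 genes tested passed an adjusted p of 0.05, which is 0.00581% of them. That gene, Abhd1, was lower in WT than in Q20, and 0 genes were higher. edgeR's quasi-likelihood test gave 275 genes with an unadjusted p under 0.05, or 1.6% of those tested, and DESeq2 called 1 gene, again Abhd1, with 243 genes under an unadjusted 0.05. The fit used all 56 libraries of 10 months, with genotype and sex as terms and Benjamini-Hochberg adjustment over all genes. The median absolute log2 difference over all genes was 0.04. The 95% interval of the difference lay inside a 1.25-fold change in either direction for 73.8% of the genes, inside a 1.5-fold change for 88.8% and inside a 2-fold change for 97.2%.

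Abhd1 codes for a member of the alpha/beta hydrolase domain family. Its annotation, ENSMUSG00000006638, is a processed transcript at chr5:30950066-30955091 on the plus strand, on the chromosome of Htt and at a distance of -3.81 Mb from it, where a negative distance lies before the start of Htt. Among WT females, Abhd1 stood at 1.85, 1.40, 1.32 and 1.45 CPM, and among WT males at 1.97, 1.96, 4.87 and 1.86 CPM. Among Q20 females it stood at 5.21, 5.40, 5.25 and 4.72 CPM, and among Q20 males at 5.40, 5.81, 5.20 and 5.02 CPM. Thus 7 of 8 WT libraries lay below every Q20 library, and the eighth, WT male 3, lay inside the Q20 range. These levels rest on 44 to 167 reads in WT and 160 to 221 reads in Q20. The means were 2.09 ± 1.16 CPM in WT and 5.25 ± 0.31 CPM in Q20 (SD, n = 8 each). The level of Abhd1 was 2.52-fold higher in Q20, a log2 difference, WT minus Q20, of -1.33 ± 0.19 (SE), with an adjusted p of 5.53e-05 by edgeR's quasi-likelihood test. Without WT male 3, the difference of Abhd1 became -1.63 ± 0.16 with an adjusted p of 2.33e-09.

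**Figure D1:**
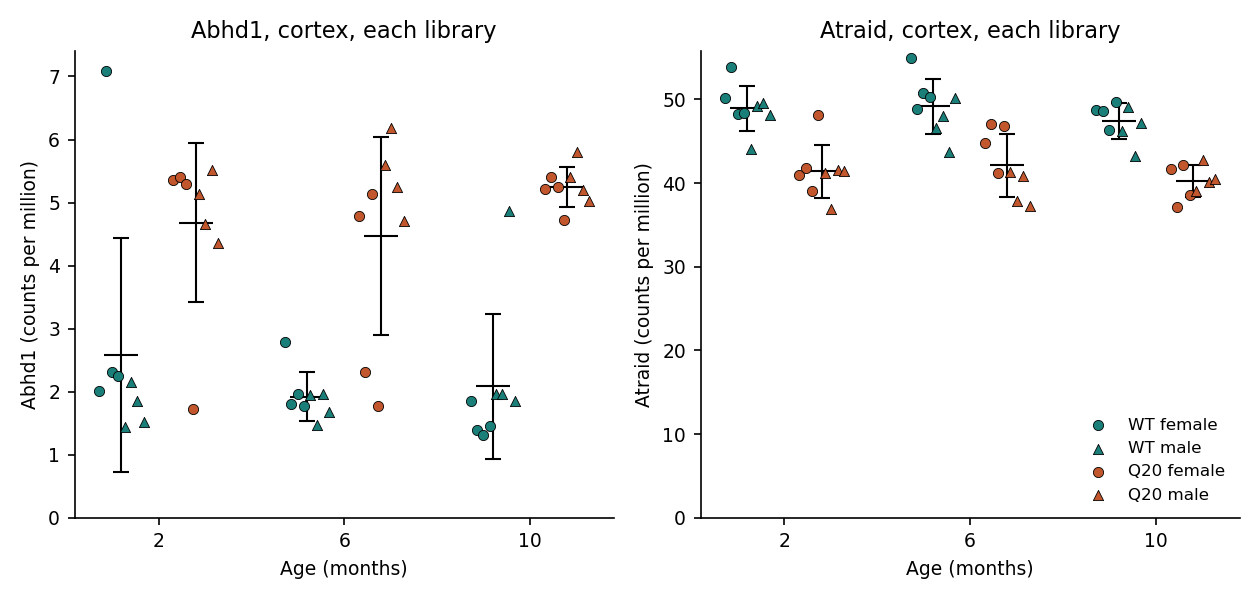
Levels of Abhd1 (left) and Atraid (right) in CPM against age in months, each point 1 cortex library of WT (green) or Q20 (orange) mice, circles for females and triangles for males, with the mean and SD in black. At 10 months 7 of 8 WT libraries lie below all Q20 libraries for Abhd1, and all 8 lie above them for Atraid.

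In females alone, the log2 difference of Abhd1 was -1.77 ± 0.21 with an adjusted p of 7.85e-05, and in males alone, where WT male 3 is 1 of 4 WT libraries, it was -1.01 ± 0.27 with an adjusted p of 1 by edgeR's quasi-likelihood test. For Abhd1 the difference between the sexes in this contrast was -0.76 ± 0.36 and had an adjusted p of 1. In a fit of the 16 WT and Q20 libraries alone, Abhd1 passed with an adjusted p of 0.0198, and without Q20 male 2 that fit gave 0.0753, by edgeR's quasi-likelihood test. The names of the libraries hold a token of the letter L and a number, whose meaning the labels do not give. Among the WT and Q20 libraries of 10 months, L3, L5 and L6 occurred only in Q20 and L2 only in WT. With that token as a term in the edgeR fit of all 56 libraries, Abhd1 differed by -1.44 ± 0.21 with an adjusted p of 1.98e-04.

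Abhd1 overlaps Preb, which lies on the opposite strand and codes for a guanine nucleotide exchange factor that loads coat proteins at the endoplasmic reticulum. The overlap covers 4239 of the 5026 bases of Abhd1. Whether the counting used strand is not given in any label or header read here, so reads of the 2 genes cannot be told apart with certainty. Preb itself had 67.4 ± 1.69 CPM in WT and 65.8 ± 2.12 CPM in Q20 (SD, n = 8 each), a log2 difference of 0.03 ± 0.03 with an adjusted p of 1 by edgeR's quasi-likelihood test. The WT libraries of Preb ran from 65.1 to 69.3 CPM and the Q20 libraries from 63.1 to 69.0 CPM, so those groups overlapped.

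Atraid, which codes for a membrane protein known as a retinoic acid-induced differentiation factor, was the only gene of 17219 whose CPM values in the WT and Q20 libraries did not overlap, again 0.00581% of the genes. It lies at chr5:31048312-31054623 on the plus strand, at -3.71 Mb from Htt. WT females held 48.7, 48.6, 46.3 and 49.7 CPM of Atraid and WT males 46.2, 49.1, 43.2 and 47.2 CPM. Q20 females held 41.7, 37.1, 42.2 and 38.6 CPM and Q20 males 39.0, 42.8, 40.1 and 40.5 CPM. Every WT library was above every Q20 library, and the lowest WT value of Atraid, 43.2 CPM, belonged to WT male 3, the library with the high Abhd1. Means were 47.4 ± 2.12 and 40.2 ± 1.94 CPM (SD, n = 8 each), or 1.18-fold higher in WT.

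The log2 difference of Atraid was 0.24 ± 0.06 (SE), with an unadjusted p of 1.04e-04 and an adjusted p of 0.896 by edgeR's quasi-likelihood test, so it did not pass in the fit over all 56 libraries. Without Q20 male 2 that fit gave 0.25 ± 0.06 for Atraid, with an adjusted p of 0.527. In the fit of the 16 WT and Q20 libraries alone, it passed with an adjusted p of 0.0198, and that fit called 2 of 16445 genes, or 0.0122%, Abhd1 and Atraid, with 2.27% under an unadjusted p of 0.05. The biological coefficient of variation was 0.0981 in the fit over all 56 libraries and 0.0799 in the fit over the 16. Slc5a6, a vitamin transporter whose gene shares 613 bases with Atraid on the opposite strand, had 23.3 ± 1.10 CPM in WT and 24.1 ± 1.01 CPM in Q20 (SD, n = 8 each), with an adjusted p of 1. Abhd1 and Atraid lie 93220 bases apart, and Tcf23, the 1 tested gene wholly between them, had a log2 difference of -0.04 ± 0.19.

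Both genes were then read in the WT and Q20 cortices of 2 months, which come from other libraries. Abhd1 stood at 2.01, 7.09, 2.31 and 2.25 CPM in WT females and at 1.44, 2.16, 1.86 and 1.52 CPM in WT males. In Q20 it stood at 5.36, 5.40, 5.29 and 1.72 CPM in females and at 5.13, 4.66, 5.51 and 4.36 CPM in males. In each group 7 of 8 libraries kept to their own range, and WT female 2 and Q20 female 4 lay in or past the range of the other genotype. WT female 2 also had a median correlation to the other libraries of its age below 0.99. Mean levels of Abhd1 were 2.58 ± 1.85 CPM in WT and 4.68 ± 1.26 CPM in Q20, and an exact permutation test of the means (two-sided, 12870 arrangements) gave p = 0.0159.

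Atraid at 2 months ran from 44.1 to 53.8 CPM in WT with a median of 48.8, and from 36.9 to 48.1 CPM in Q20 with a median of 41.3. Its highest Q20 library was Q20 female 4, the one with the low Abhd1. Its highest WT library, at 53.8 CPM, was WT female 2, the one with the high Abhd1, so both genes were high there. The other libraries of 2 months with a median correlation under 0.99 were also high in both genes. Abhd1 stood at 8.778 CPM in Q80 female 3, 7.475 in Q80 male 5 and 7.405 in Q92 male 3. Atraid stood in them at 60.4, 53.85 and 54.96 CPM. For each gene these were the highest knock-in values of that age. The exact permutation test of the Atraid means (two-sided) gave p = 4.66e-04, which adjusted over the 2 genes tested was 9.32e-04, and that of Abhd1 stayed at 0.0159. In the edgeR fit across all genes of 2 months neither gene passed, with log2 differences of -0.89 ± 0.25 for Abhd1 and 0.24 ± 0.08 for Atraid and an adjusted p of 0.974 for both. When the 4 libraries of 2 months with a median correlation under 0.99 were left out, Abhd1 passed at that age, with a log2 difference of -1.27 ± 0.23 and an adjusted p of 0.0271, the 1 gene called.

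At 2 months 0 of 17194 genes passed in edgeR, or 0%, with 530, or 3.08%, under an unadjusted p of 0.05. DESeq2 called 1 gene there, Gm26718, which had counts in 3 of 8 WT libraries and 0 of 8 Q20 libraries. The difference between ages, 10 minus 2 months, passed for 0 of 16954 genes in edgeR and for 0 in DESeq2, with 383, or 2.26%, under an unadjusted 0.05 in edgeR. That difference between ages was -0.47 ± 0.40 on the log2 scale for Abhd1 and -0.004 ± 0.06 for Atraid, with adjusted p of 0.989 and 1 in edgeR.

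At 6 months the WT and Q20 libraries carried different series of library names, so that genotype and name series cannot be told apart, and 31.3% of 17611 genes passed in edgeR, with 40% under an unadjusted p of 0.05. The values of that age are therefore given as levels only. Abhd1 ran from 1.47 to 2.79 CPM in WT, and in Q20 it ran from 4.70 to 6.18 CPM in 6 libraries and stood at 2.31 and 1.78 CPM in Q20 female 2 and Q20 female 4. Atraid ran from 43.7 to 54.9 CPM in WT and from 37.3 to 47.1 CPM in Q20, and its highest Q20 values, 47.1 and 46.8 CPM, were those of the same 2 females.

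Over all 168 libraries of the series, Abhd1 fell into separate ranges, from 1.32 to 2.79 CPM and from 4.06 to 8.78 CPM, with no library between them. A line at 3 CPM, drawn after these values were seen, left 22 of 24 WT libraries and 11 of 144 knock-in libraries below it. Whether the libraries in the other genotype's range, WT male 3 at 10 months among them, carry the right genotype label was not tested. Htt counts, which sum both alleles, ran in Q175 at 10 months from 130.6 to 165.8 CPM, below the 184.3 to 204.1 CPM of WT. Those of every other knock-in group of that age, Q20 included, overlapped WT and do not check the label. The WT and Q20 means of Abhd1 therefore stand for the libraries as labelled. At 10 months the mean level was 5.30 ± 0.53 CPM in Q80, 5.18 ± 0.68 in Q92, 4.99 ± 0.71 in Q111, 5.24 ± 0.52 in Q140 and 3.64 ± 1.57 in Q175 (SD, n = 8 each), beside 5.25 in Q20 and 2.09 in WT. The lower mean of Abhd1 in Q175 held 3 libraries under 3 CPM, and no other knock-in group of that age held any. Those 3 libraries held the highest Atraid values of Q175, at 49.82, 48.82 and 44.28 CPM. Atraid in the other Q175 libraries ran from 38.14 to 40.35 CPM. Means of Atraid at 10 months were 36.5 ± 3.64 CPM in Q80, 38.7 ± 2.21 in Q92, 39.6 ± 3.0 in Q111, 39.6 ± 4.67 in Q140 and 42.4 ± 4.67 in Q175, each below the 47.4 CPM of WT. In this order of levels, Q92, Q111, Q140 and Q20 lay within 1 SD of each other.

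**Figure D2:**
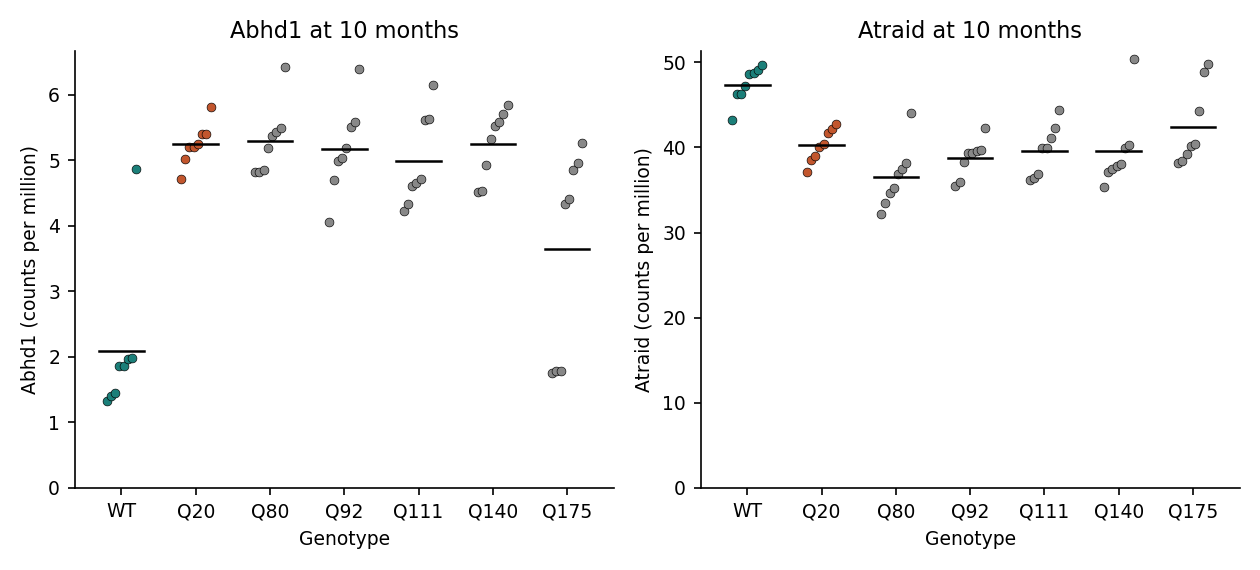
Levels of Abhd1 (left) and Atraid (right) in CPM at 10 months for WT, Q20 and the 5 longer knock-in alleles, each point 1 cortex library and each bar the mean of 8. For Abhd1, WT male 3 lies at 4.87 CPM among the knock-in values, and 3 Q175 libraries lie under 3 CPM.

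Other genes near Htt were listed by distance. Within 5 Mb, 120 genes other than Htt were tested, and 1, Abhd1, passed, against 0.00581% of all genes. An unadjusted p under 0.05 was found for 8 of the 120, or 6.67%, against 1.6% of all genes tested. Of these 120 genes 66 were higher and 54 lower in WT, with a median log2 difference of 0.01, against -0.001 over all genes. At 2 months 72 of the 120, or 60%, had the same direction as at 10 months, against 50.7% of all genes tested at both ages. Of the 10 genes with the smallest p in the whole comparison 5 lay within 5 Mb of Htt, where 0.697% of the tested genes lie, and the count was also 5 among the first 20. Within 1 Mb 31 genes were tested and 0 passed in edgeR, with 1 under an unadjusted 0.05.

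Beside Abhd1 and Atraid, 3 of the 8 were higher in WT. Otof, which codes for otoferlin, the calcium sensor of hair cell synapses, ran from 28.8 to 49.1 CPM in WT with a median of 36.1, and from 16.3 to 38.6 CPM in Q20 with a median of 27.9. The ranges of Otof overlapped, its lowest Q20 value was that of Q20 male 2, and its log2 difference was 0.42 ± 0.12, or 0.34 ± 0.12 without that library. Supt7l, a subunit of a histone acetylation complex, had 13.7 ± 0.59 CPM in WT and 12.5 ± 0.67 CPM in Q20 (SD, n = 8 each), a log2 difference of 0.14 ± 0.04. Kcnk3, a two-pore potassium channel, had a log2 difference of 0.14 ± 0.07. The other 3 were lower in WT, namely Gm2420, a pseudogene with 0 to 5 reads in WT and 4 to 15 reads in Q20, Prr14l with -0.15 ± 0.07, and Grk4, a receptor kinase gene next to Htt, with -0.18 ± 0.08. Of these 6 genes 0 passed in edgeR, each with an adjusted p of 1. Kcnk3, Gm2420, Prr14l and Grk4 were named after their values were seen.

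**Figure D3:**
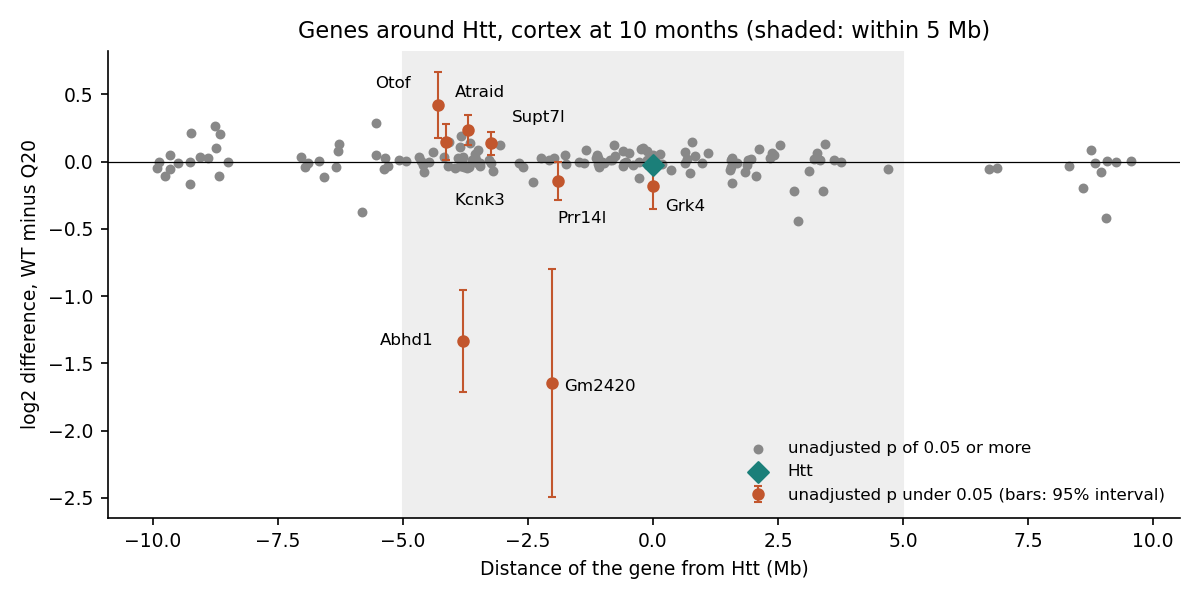
log2 difference in level, WT minus Q20, of the tested genes within 10 Mb of Htt at 10 months, against distance from Htt in Mb, with 95% intervals for genes of unadjusted p under 0.05 (orange) and Htt as a diamond. Abhd1 at -3.81 Mb is the gene that passed the test, and the 8 orange genes lie between -4.30 Mb and Htt.

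The remaining genes of smallest p had differences mostly well under 2-fold, and 0 of them passed in edgeR, each with an adjusted p of 1. Among those higher in WT, Sec16b, a gene of endoplasmic reticulum export sites, had 2.85 ± 0.33 CPM in WT and 2.29 ± 0.40 CPM in Q20, a log2 difference of 0.32 ± 0.09. Chtf18, a clamp loader of DNA replication, had 1.47 ± 0.24 against 1.11 ± 0.18 CPM, or 0.40 ± 0.13. Tmem238, a membrane protein gene, had 0.68 ± 0.17 against 0.47 ± 0.11 CPM, or 0.50 ± 0.16. Chfr, a mitotic checkpoint ubiquitin ligase, and Kri1, a ribosome assembly factor, differed by 0.09 ± 0.03 and 0.11 ± 0.04. Arhgap24, Tnfaip8l2, Lingo2 and Glt1d1 completed that side with differences of 0.16 ± 0.06, 0.31 ± 0.11, 0.15 ± 0.06 and 0.09 ± 0.04.

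Among those lower in WT, Homez, a homeobox and leucine zipper gene, had 13.7 ± 0.70 CPM in WT and 14.98 ± 0.86 CPM in Q20, a log2 difference of -0.13 ± 0.04. Trpc4, a cation channel, differed by -0.19 ± 0.06, and Pdgfd, a platelet-derived growth factor ligand, by -0.32 ± 0.11. Ccdc138, Adat2, a transfer RNA deaminase subunit, and Rbm43 differed by -0.24 ± 0.08, -0.25 ± 0.08 and -0.13 ± 0.05. The highest Q20 value of Rbm43 was that of Q20 male 2, and without it the difference of Rbm43 was -0.10 ± 0.05. The antisense transcript Mettl5os and the pseudogene Rpl3-ps2 had means under 0.5 CPM in both groups and differed by -0.79 ± 0.26 and -1.02 ± 0.33.

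The remaining 3 genes on that side were Dnah6, Cfap53 and Ccdc170, and 0 of the 3 passed in edgeR, each with an adjusted p of 1. Dnah6, an axonemal dynein heavy chain, ran from 1.56 to 2.36 CPM in WT with a median of 1.83, and from 1.78 to 4.14 CPM in Q20 with a median of 2.77. The ranges of Dnah6 overlapped, and the log2 difference was -0.63 ± 0.21. Cfap53, a cilia and flagella protein gene, differed by -1.06 ± 0.31 and Ccdc170 by -0.79 ± 0.28, both at means under 1 CPM.

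**Figure D4:**
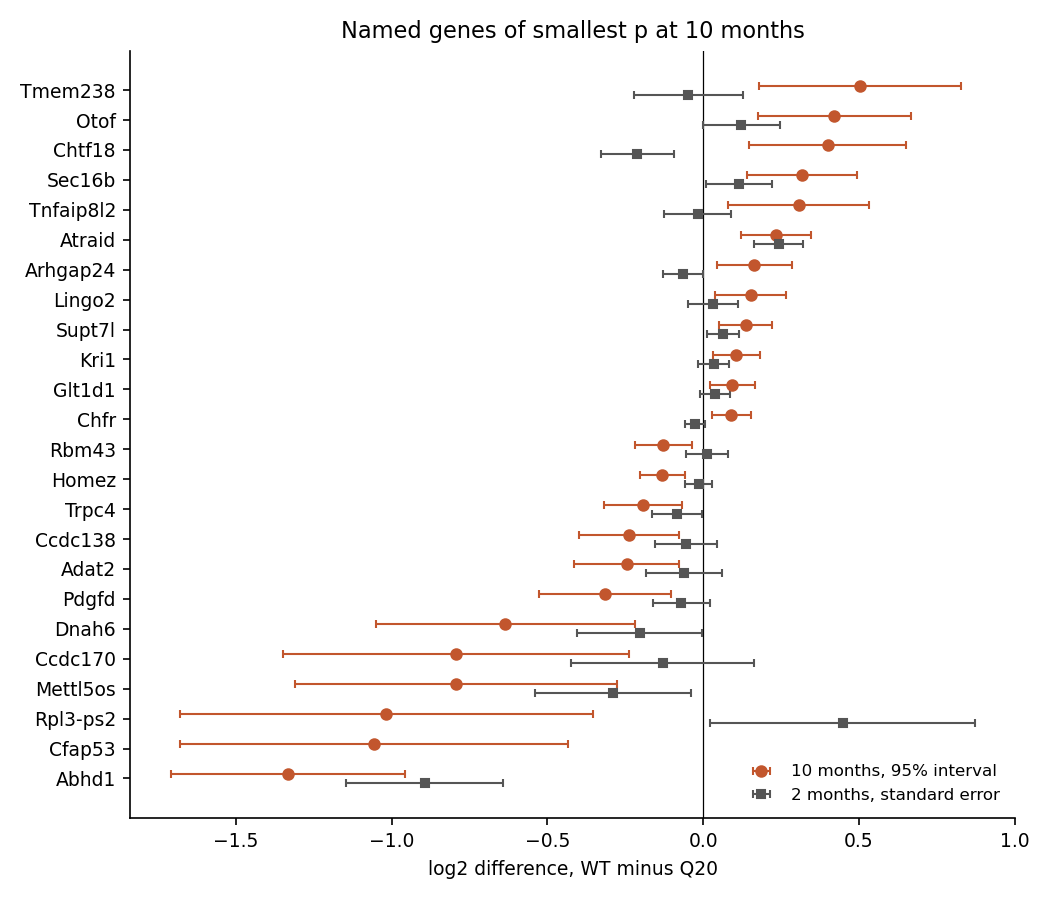
log2 difference in level, WT minus Q20, of the 12 named genes of smallest p on each side at 10 months (orange, with 95% interval) and of the same genes at 2 months (grey, with SE). Abhd1 and Atraid keep their direction at 2 months with differences of -0.89 and 0.24, and Cfap53 has no value there. Chtf18, Tmem238, Chfr, Arhgap24, Tnfaip8l2, Rpl3-ps2 and Rbm43 turn direction at 2 months.

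Of 30 gene lists for cell types and pathways, holding 530 genes, all but 12 genes were tested. In edgeR 0 of the tested members passed, against 0.00581% of all genes, and 9, or 1.74%, had an unadjusted p under 0.05, against 1.6% of all genes. DESeq2 and limma called 0 of them too. List medians were above 0 for 15 lists and below 0 for 15, and they ran from -1.31 to 0.31, against -0.001 over all genes. Without Q20 male 2 the medians of 20 of the 30 lists moved by more than 1.5 times or turned, 5 of them turning, with shifts of at most 0.06 outside the choroid plexus list.

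Choroid plexus markers had the lowest median. All 12 tested members were lower in WT, 0 of 12 passed in edgeR or had an unadjusted p under 0.05, and the median log2 difference was -1.31. Their summed level ran from 253 to 1246 CPM in WT with a median of 325, and from 275 to 2312 CPM in Q20 with a median of 1204, so the groups overlapped, and the Q20 median lay just below the highest WT library. Ttr, transthyretin, the main secreted protein of that epithelium, ran from 13.6 to 649 CPM in WT and from 20.6 to 1376 CPM in Q20. Otx2, a transcription factor of the epithelium, had 1.03 ± 1.15 CPM in WT and 2.77 ± 2.20 CPM in Q20, and Clic6, a chloride channel protein, 4.29 ± 3.78 and 10.8 ± 8.15 CPM (SD, n = 8 each). SDs of Otx2 and Clic6 were of the size of their means, and their log2 differences were -1.42 ± 0.74 and -1.33 ± 0.70. None of the 12 markers was at 0 in all 16 libraries. At 2 months the median difference of the list was -0.22, and without Q20 male 2 at 10 months it was -1.11. In bulk cortex, fewer cells of a type and less RNA per cell cannot be told apart. The source of the choroid plexus transcripts in these libraries was not tested.

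Meningeal markers were lower in WT for 11 of 12, with a median log2 difference of -0.15. Igf2, a growth factor gene of the leptomeninges and choroid plexus, ran from 29.1 to 42.2 CPM in WT and from 32.8 to 66.6 CPM in Q20, a log2 difference of -0.49 ± 0.27. Blood markers were higher in WT for 8 of 9, with a median of 0.31 at 10 months and 0.0005 at 2 months. Their summed level ran from 367 to 578 CPM in WT with a median of 408, and from 343 to 439 CPM in Q20 with a median of 399. Alas2, the erythroid enzyme of heme synthesis, had a log2 difference of 0.40 ± 0.21 and Hba-a2, an alpha globin, one of 0.33 ± 0.20, with SDs of 1.0 and 16.8 CPM in WT against 0.44 and 6.94 CPM in Q20. In edgeR 0 members of the meningeal and blood lists passed or had an unadjusted p under 0.05.

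**Figure D5:**
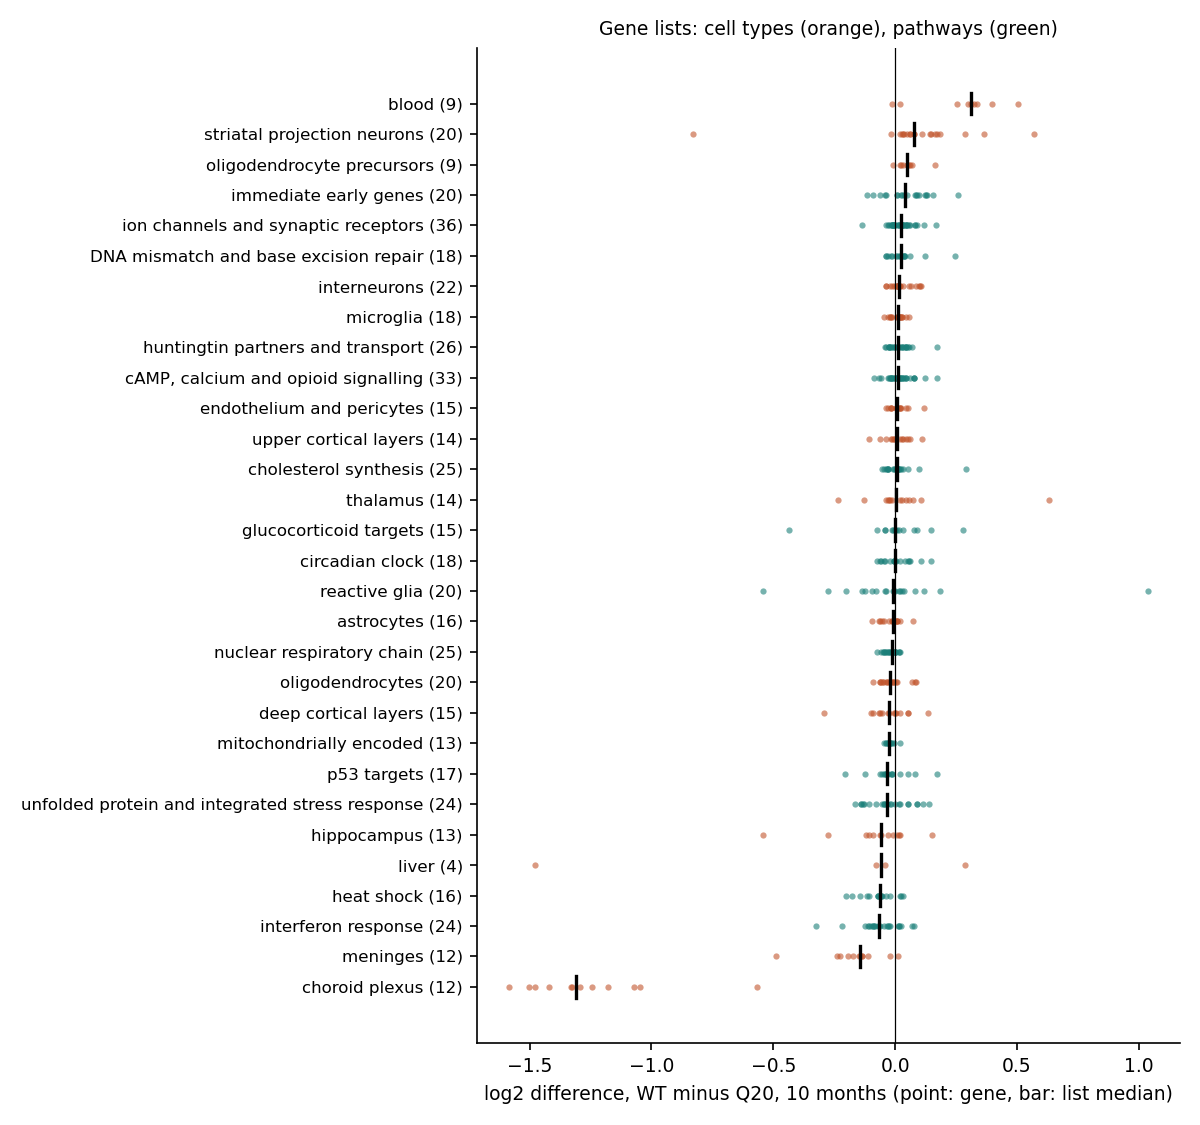
log2 difference in level, WT minus Q20, at 10 months for each tested member of the 30 lists (points, with the number of genes tested in brackets) and the list median (bar), cell types in orange and pathways in green. Choroid plexus has a median of -1.31, blood one of 0.31, and the medians of the other 28 lists lie closer to 0.

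Markers of the cortical cells themselves differed little. The medians of 16 astrocyte, 18 microglial, 20 oligodendrocyte and 22 interneuron markers were -0.01, 0.01, -0.02 and 0.01 on the log2 scale (-0.02, 0.02, -0.03 and 0.03 without Q20 male 2), and no member of these lists differed by more than 0.11. Gfap, the intermediate filament of astrocytes, had 97.5 ± 9.92 CPM in WT and 103.9 ± 9.32 CPM in Q20, a log2 difference of -0.09 ± 0.08. The summed microglial markers ran from 591.8 to 641.9 CPM in WT and from 577 to 664 CPM in Q20. Upper and deep cortical layer markers had medians of 0.01 and -0.02, or 0.02 and -0.01 without that library. Markers of striatal projection neurons were detected too, with summed levels of 745 to 947 CPM in WT and 721 to 848 CPM in Q20.

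Of those 20 striatal markers 18 were higher in WT, with a median log2 difference of 0.08 and 0 that passed in edgeR. Adcy5, the adenylyl cyclase of striatal neurons, differed by 0.08 ± 0.05, or 0.05 ± 0.05 without Q20 male 2, and Ido1, an enzyme of tryptophan breakdown, by 0.57 ± 0.26 at means of 0.46 and 0.31 CPM. Oligodendrocyte precursor markers were higher for 8 of 9, with a median of 0.05 (0.02 without Q20 male 2), and Neu4, a sialidase, differed by 0.16 ± 0.08. Of the thalamic markers 7 were higher and 7 lower, and Prkcd, a protein kinase C of thalamic relay neurons, differed by -0.23 ± 0.11. Hippocampal markers were lower for 9 of 13, with a median of -0.06 (-0.03 without Q20 male 2).

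Huntingtin's partners and the transport machinery showed 15 of 26 genes higher and 11 lower in WT, with a median log2 difference of 0.01 that turned to -0.009 without Q20 male 2. Hdac6, the tubulin deacetylase, differed by 0.07 ± 0.03, and Hap1, huntingtin-associated protein, by 0.17 ± 0.14 with SDs of 27.3 CPM in WT and 20.0 CPM in Q20. Of 36 ion channel and synaptic receptor genes, 24 were higher and 12 lower, with a median of 0.02 that turned to -0.009 without Q20 male 2. The 3 of them under an unadjusted p of 0.05 were Gabra5, a GABA receptor subunit (-0.14 ± 0.06), Kcnh4, a potassium channel (0.17 ± 0.07), and Kcnj4, an inward rectifier named after its value was seen, and 0 of the 3 passed in edgeR. Genes of cyclic AMP, calcium and opioid signalling, 33 of them tested, had a median of 0.01.

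Stress and immune lists had medians close to 0. Interferon response genes were lower in WT for 18 of 24, with a median log2 difference of -0.06, and Ifit1, an antiviral effector, had 2.89 ± 0.47 CPM in WT and 3.37 ± 0.60 CPM in Q20 (SD, n = 8 each). In edgeR 0 of the 24 passed. Heat shock genes were lower for 13 of 16, with a median of -0.06 that became -0.004 without Q20 male 2. Mitochondrially encoded genes were lower for 12 of 13, with a median of -0.02 that became -0.001 without that library. Unfolded protein response genes had a median of -0.03 (-0.01 without Q20 male 2), p53 targets -0.03 (-0.01), reactive glia genes -0.008 (0.004, a turned direction) and cholesterol synthesis genes 0.01 (0.04). Mismatch and base excision repair genes had a median of 0.02 with and without that library. Immediate early genes varied more within the groups, with summed levels from 753 to 1665 CPM in WT and from 729 to 1617 CPM in Q20 and a median difference of 0.04.

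The difference between the sexes in the WT minus Q20 contrast passed for 0 of 17219 genes in edgeR and for 0 in DESeq2, with 304 genes, or 1.77%, under an unadjusted p of 0.05 in edgeR. Htt differed by -0.05 in females and 0.002 in males on the log2 scale, and Atraid by 0.28 and 0.20. The SE of the sex difference was 0.11 for Atraid and 0.16 for Htt.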

How the data were processed

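Gene tables of polyadenylated RNA from mouse cortex, sequenced on HiSeq instruments per the labels, were deposited by the authors as estimated counts (17.7% not whole) and as FPKM values. The submitters' processing notes name CASAVA 1.8.2, and the aligner, the counting tool, its strand setting and the genome build are named in no source used here. Counts were rounded. IDs with no symbol held 0.318% of counts. Positions are those of GENCODE M21 (GRCm38). edgeR 4.0.16 (filterByExpr with a count minimum of 10, TMM, robust quasi-likelihood fit) tested WT minus Q20 at 10 months over 56 libraries, with genotype and sex as terms. Levels are CPM with TMM factors. Alternatives used DESeq2 1.42.0 and limma 3.58.1 on log2(FPKM + 0.1) and log2(FPKM + 1), other filters and scalings, other sets of libraries, and a term for the L token of the library name. Exact tests used scipy. Scripts were tested on simulated data. Named genes are Htt, the 12 of smallest p on each side without clone names, genes near Htt that passed, and up to 2 per list of smallest p. Samples, lists and tests were chosen with earlier results of these data known. Precision is limited by the number of libraries.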

Additional observations from a re-analysis of the deposited data

Results flagged for a closer look

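In groups of 8 libraries, a value was singled out where its gap to the nearest other library exceeded Dixon's 95% limit for the share of the group's range, which chance passes in about 1 of 20 groups. Over 84 named genes and 168 groups, 10 values did so. WT male 3 had 4.87 CPM of Abhd1, against 1.32 to 1.97 CPM in the other WT libraries, and 34.5 CPM of Stard8, against 40.4 to 45.6 CPM. Q20 male 2 gave 4 of the 10 values: Htt at 146 CPM was the lowest of its group, and Rbm43 at 15.9 CPM, Ctss at 85.3 CPM and Atp5c1 at 195 CPM were the highest. The others were Pdgfrb at 29.6 CPM in WT female 4, Slc32a1 at 47.6 CPM in WT female 1, Hap1 at 142 CPM in Q20 female 3 and Hspb8 at 11.3 CPM in WT male 2.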

How the results depend on the processing

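Abhd1 stayed the gene called lower in WT, with 0 genes higher, under DESeq2 and its size factors, no filter, no sex term, the L token term, both FPKM scales, females alone, the correlation limit and each fit that left out 1 library (log2 difference -1.63 to -1.26). With only the WT and Q20 libraries 1 gene was higher (Atraid, 0.24) and 2 within 5 Mb of Htt were called. The replicate block in those libraries called 0 genes in either place (Abhd1 -1.42, adjusted p 0.146), and males alone also 0 (-1.01). Replicate numbers do not pair the libraries: 1 of 8 pairs correlated over 0.1 (-0.21 to 0.109), and 2 of 8 correlated best with their own number. Alternatives chosen after seeing the data left out libraries: the 2-genotype fit without Q20 male 2 called 1 gene higher (Atraid, 0.25) and 0 lower (Abhd1 -1.36, adjusted p 0.0753), and without WT male 3 it called 1 higher (Atraid, 0.26), 1 lower and 2 near Htt. With both left out of the 56, Abhd1 had -1.61. Within 1 Mb of Htt 0 genes were called. At 2 months DESeq2 called 1 gene higher, and 1 gene was lower without libraries of low correlation. Of 2593 values of 84 named genes, 13 changed direction: in males alone Htt 0.0052, Aldh1l1 -0.0155, Pdgfrb -0.0612, Fibcd1 0.0304 and Nr4a2 0.0297, in females alone Igfbp2 0.0216, Hap1 -0.0157, Hlf 0.0275 and Plin4 0.0141, with the L token Pdgfrb -0.0079, mt-Nd4 0.0072 and mt-Atp6 0.0222, and without both libraries Ctss 0.006. The cause was not tested. Depth was 44 to 221 reads a library for Abhd1, and its SE in the 2-genotype fit went from 0.19 to 0.09 without WT male 3.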
